A study of Mus musculus with 6 samples.

Results

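The subunits described here are 10 proteins of the mouse BAF chromatin-remodelling complex that are exchanged as stem cells and progenitors become neurons. Their transcripts were matched by gene symbol in a table of 41945 genes and loci, and each of the 10 symbols had 1 entry. The members comprise 5 forms of the embryonic stem cell (ESC) or neural progenitor complex (Smarca4, Smarcc1, Actl6a, Phf10 and Ss18) and 5 forms that are neuronal or gained on the way to neurons (Smarca2, Actl6b, Dpf1, Dpf3 and Ss18l1). Motor neurons (MNs) were made from Hb9 control mouse ESCs, labelled wildtype, and from A2 SMA mouse ESCs of genotype SMN2+/+;mSmn-/-, both on the FVB/N background. Both lines carry an eGFP reporter under the promoter of Hb9, a MN transcription factor, and the study's methods give the human SMN2 transgene for the control line as well. Embryoid bodies received 1 µM retinoic acid and 1 µM Smoothened agonist for 5 days, GFP-positive cells were sorted, and 3 samples of each genotype went to RNA sequencing. Each genotype is 1 ESC line, so an effect of the Smn1 loss and other differences between the lines cannot be told apart.

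The table holds 1 FPKM value per genotype, a read-based abundance scaled to transcript length and to sequencing depth, in which the authors combined the 3 samples. The differences below therefore have no replicate check, no test was run and no SD can be given. The table does not give the reads behind a value. Smn1, the targeted gene, was listed at 137 FPKM in Hb9 control MNs against 5.26 FPKM in A2 SMA MNs. A difference was counted where it reached 2-fold in either direction. The comparison set was the 15548 entries that carry a gene symbol, reach 1 FPKM in Hb9 control or A2 SMA MNs and are not at 0 in any genotype. Over that set the median log2 ratio of A2 SMA over Hb9 control MNs was -0.30, and 22.7% of entries were at least 2-fold lower and 6.93% at least 2-fold higher in A2 SMA MNs. After subtraction of that median, these shares were 16.6% and 10.6%, and the share of higher entries among all those past 2-fold moved from 23.4% to 39.0%.

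BAF complexes, the mammalian counterparts of yeast SWI/SNF, use ATP to slide or evict nucleosomes. ESCs hold a form built on the ATPase BRG1 (Smarca4) with BAF155 (Smarcc1), and the ATPase BRM (Smarca2) and BAF170 (Smarcc2) join as cells leave pluripotency. When neural progenitors leave the cell cycle, the actin-related subunit BAF53a (Actl6a) gives way to BAF53b (Actl6b), the PHD finger subunit BAF45a (Phf10) to BAF45b and BAF45c (Dpf1 and Dpf3), and SS18 to CREST (Ss18l1). The neuronal subunits are known for their part in dendrite growth and synaptic plasticity. The repressor REST and the microRNAs miR-9* (miR-9-3p) and miR-124 are known regulators of the exchange of BAF53a for BAF53b.

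The labelled cell type was checked against marker genes, and several defining MN markers were low in the A2 SMA MNs. The MN marker Mnx1, whose promoter drives the reporter used for sorting, was at 41.2 FPKM in Hb9 control MNs against 44.2 FPKM in A2 SMA MNs. Other defining MN markers were low in A2 SMA MNs, Chat at 0.344 FPKM and Lhx3 at 0.348 FPKM against 15.5 and 27.6 FPKM in Hb9 control MNs. Of the 6 MN markers past 1 FPKM, 5 were at least 2-fold lower, and the 7 found summed to 216 and 52.5 FPKM. All 9 pan-neuronal markers found were at least 2-fold lower in A2 SMA MNs, and their summed level was 1235 FPKM in Hb9 control MNs against 69.8 FPKM in A2 SMA MNs. Of 7 neural progenitor markers, 6 were at least 2-fold lower, with sums of 973 and 47.3 FPKM. Of 10 pluripotency markers, 9 were at least 2-fold higher, with sums of 523 and 2299 FPKM, while the 8 proliferation markers were all within 2-fold, with sums of 1055 and 1198 FPKM. Of 8 markers of fibroblasts, the feeder cells of ESC culture, 5 were at least 2-fold lower and 1 higher (2 and 1 relative to the median gene), and the sums were 69.6 and 36.6 FPKM. Of the 5 glial markers past 1 FPKM, 3 were at least 2-fold lower, and the 8 measured glial markers summed to 53.6 and 20.4 FPKM. In these lists 3 MN, 2 pan-neuronal, 2 neural progenitor, 2 fibroblast and 1 glial markers passed 1 FPKM in Hb9 control MNs alone, so they could enter the counts only as lower, and 1 fibroblast marker passed in A2 SMA MNs alone. No marker found was at 0 in either genotype, and the part of these markers' cell types in the differences of the BAF subunits was not tested.

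The 5 neuronal forms were all at least 2-fold lower in A2 SMA MNs, against 22.7% of the comparison set, and none of the 5 ESC or progenitor forms was past 2-fold in either direction. The same 5 of 10 members were past 2-fold when ratios were taken relative to the median gene, against 16.6% of the set. The median log2 ratio was -1.79 over the neuronal forms and -0.06 over the ESC or progenitor forms, beside -0.30 over the set. All 10 members passed the 1 FPKM limit, but Actl6b and Dpf3 did so in Hb9 control MNs alone, so those genes could enter the set only by being lower in A2 SMA MNs. In bulk RNA, fewer neurons among the sorted cells and less of these transcripts per neuron cannot be told apart, and all 9 pan-neuronal markers were lower in the same libraries.

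**Figure D1:**
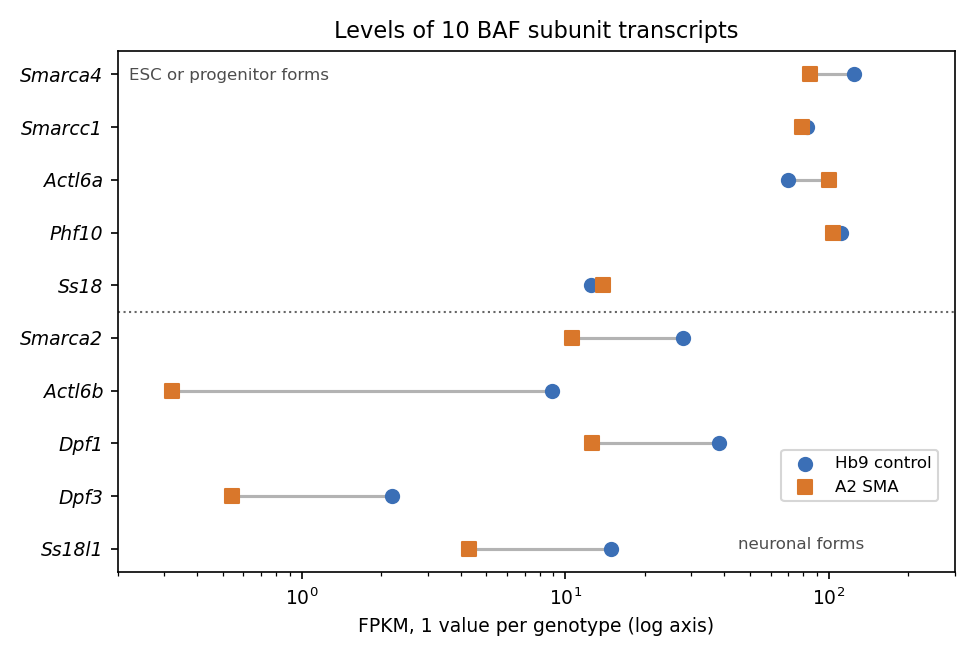
FPKM of the 10 members in Hb9 control MNs (circles) and A2 SMA MNs (squares) on a log axis, 1 value per genotype and no error bars because the table gives none. The 5 neuronal forms lie to the left in A2 SMA MNs, Actl6b farthest (8.88 to 0.322 FPKM), while the 5 ESC or progenitor forms stay within 2-fold.

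Actl6b, which encodes the neuron-specific actin-related subunit BAF53b, showed the largest difference of the 10 members. It was listed at 8.88 FPKM in Hb9 control MNs against 0.322 FPKM in A2 SMA MNs, a 27.5-fold lower level (log2 ratio -4.78). Only 0.701% of the comparison set had a lower ratio. Its level was above that of 36.0% of the set in Hb9 control MNs and of 2.21% in A2 SMA MNs. With 1 FPKM added to both values the log2 ratio was -2.90, since its A2 SMA value is under 1 FPKM. In NCBI m37, the build of the table, the Actl6b gene is at chr5:137994745-138010810.

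The promoter of Actl6b is shown because it holds matches to the left and the right part of RE1, the element that REST binds, at a spacing other than the usual one. The sequence is RefSeq's for GRCm38.p6, chr5:137553296-137553595 on the plus strand, from 250 bases before to 50 bases after the start site. Capitals mark these parts, which lie on the minus strand, so the top strand shows their complement.
Actl6b promoter: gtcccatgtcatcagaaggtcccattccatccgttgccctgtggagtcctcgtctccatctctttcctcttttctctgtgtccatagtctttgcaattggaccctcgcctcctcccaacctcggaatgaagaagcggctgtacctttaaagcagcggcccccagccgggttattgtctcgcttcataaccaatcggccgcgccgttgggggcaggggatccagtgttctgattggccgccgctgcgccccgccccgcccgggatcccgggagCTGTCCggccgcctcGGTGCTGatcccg
Actl6b matched stretch, minus strand: CAGCACCgaggcggccGGACAG
The search was for CAGCACC followed by GGACAG on either strand with a gap of 0 to 12 bases. In Actl6b the gap was 9 bases, where the usual element has 2, and the 22-base match ran from base 23 to base 44 after the start site. Of 32851 promoter windows of this length, 37 (0.113%) held both parts in this order, 4 of them with a gap of 9 bases. CAGCACC was in 7.14% of the windows and GGACAG in 22.2%. Among the 9 members with a window in the RefSeq table, only Actl6b held both parts, as no other had CAGCACC. The search was chosen after the values of Actl6b were known, and a match of letters does not show that REST was bound in these cells. The window of Actl6a, the progenitor counterpart, is given for comparison (chr3:32708296-32708595, plus strand).
Actl6a promoter: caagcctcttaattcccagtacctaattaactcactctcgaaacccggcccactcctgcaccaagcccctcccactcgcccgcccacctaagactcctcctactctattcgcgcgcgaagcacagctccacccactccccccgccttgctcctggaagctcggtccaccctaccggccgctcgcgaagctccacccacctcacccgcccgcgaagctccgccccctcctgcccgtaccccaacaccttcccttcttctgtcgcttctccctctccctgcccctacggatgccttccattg

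Dpf3 (chr12:84314732-84828657 of m37) and Dpf1 (chr7:30088970-30102614) encode the neuronal PHD finger subunits, a domain known for reading histone tails. Dpf3 was the lowest of the members in Hb9 control MNs, at 2.19 FPKM, and was at 0.543 FPKM in A2 SMA MNs, 4.04-fold lower (log2 ratio -2.01). With 1 FPKM added, the log2 ratio of Dpf3 was -1.05. Dpf1 was the most abundant neuronal form, at 38.4 FPKM in Hb9 control MNs against 12.6 FPKM in A2 SMA MNs, 3.04-fold lower (log2 ratio -1.60). Ss18l1 (chr2:179777214-179804906) encodes CREST, a calcium-responsive transactivator that takes the place of SS18. It was at 14.9 FPKM in Hb9 control MNs against 4.32 FPKM in A2 SMA MNs, a 3.46-fold lower level (log2 ratio -1.79). Smarca2 (chr19:26679605-26898397), the ATPase that ESCs lack or hold at low levels, had the smallest difference of the neuronal group, with 27.9 FPKM in Hb9 control MNs against 10.6 FPKM in A2 SMA MNs (2.63-fold lower, log2 ratio -1.39). Ss18l1 and Ss18 carry the status FAIL in the table, the mark Cuffdiff gives where it could not complete its own test, as do 14.0% of the comparison set. Without entries of that status, 4 members were at least 2-fold lower, beside 23.8% of the remaining set. At a limit of 4-fold, Actl6b and Dpf3 were lower, beside 9.04% of the set, and Dpf3 was under that limit relative to the median gene (log2 ratio -1.72). These are the members that passed 1 FPKM in Hb9 control MNs alone and so could enter the set only as lower. No member past 1 FPKM in both genotypes reached 4-fold.

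Among the ESC or progenitor forms, Actl6a (chr3:32607468-32650488 of m37) had the largest ratio above 0. It was at 69.7 FPKM in Hb9 control MNs against 100.4 FPKM in A2 SMA MNs, 1.44-fold higher (log2 ratio 0.53), and its ratio was above that of 85.9% of the comparison set. Smarca4 (chr9:21420613-21508674), the catalytic subunit of the ESC complex, was at 124.6 and 84.8 FPKM, 1.47-fold lower (log2 ratio -0.55). Smarcc1 (chr9:110034541-110142682), a scaffold subunit, was at 82.4 and 79.3 FPKM, and its log2 ratio of -0.06 became 0.24 relative to the median gene. Phf10 (chr17:15080189-15129820) was at 111 and 103.7 FPKM, with a log2 ratio of -0.10 that became 0.20 on the same scale. Ss18 was at 12.5 FPKM in Hb9 control MNs against 13.9 FPKM in A2 SMA MNs (log2 ratio 0.15).

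FPKM is corrected for transcript length, so levels can be set side by side across members. In A2 SMA MNs each ESC or progenitor form was above each neuronal form, although the gap between the lowest of the first (Ss18, 13.9 FPKM) and the highest of the second (Dpf1, 12.6 FPKM) was narrow. In Hb9 control MNs the groups overlapped, since Dpf1, Smarca2 and Ss18l1 were all above Ss18. In both genotypes Smarca4, Phf10, Smarcc1 and Actl6a were the 4 most abundant members, at 69.7 to 124.6 FPKM in Hb9 control MNs against 79.3 to 103.7 FPKM in A2 SMA MNs. The difference between neighbours in these orders cannot be set against a replicate spread.

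The balance within each subunit position was taken as the share of the neuronal form in the summed FPKM of both forms. This share is the same whatever the scaling between genotypes. For the actin-related subunits, Actl6b made up 11.3% in Hb9 control MNs and 0.320% in A2 SMA MNs, so that Actl6a exceeded it 7.86-fold and 312-fold. With 1 FPKM added to both forms the A2 SMA share was 1.29%, so the 312-fold ratio rests on the low value of Actl6b (0.322 FPKM). For the SS18 family, Ss18l1 was the larger part in Hb9 control MNs (54.4%) and the smaller in A2 SMA MNs (23.8%), the only one of the pairs whose order was turned. Dpf1 held 25.7% of the sum with Phf10 in Hb9 control MNs and 10.9% in A2 SMA MNs, and Dpf3 held 1.94% and 0.521% of its own sum with Phf10. Smarca2 held 18.3% and 11.1% of the sum with Smarca4, the smallest relative difference. The neuronal share was thus lower in A2 SMA MNs at every position, and the ratio of neuronal to progenitor form was lower by a factor of 1.79 for the ATPases and up to 39.7 for the actin-related subunits, the latter with the same low value of Actl6b. The summed level of both actin-related forms was 78.6 FPKM in Hb9 control MNs against 100.7 FPKM in A2 SMA MNs, and that of both ATPases was 152 and 95.5 FPKM.

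**Figure D2:**
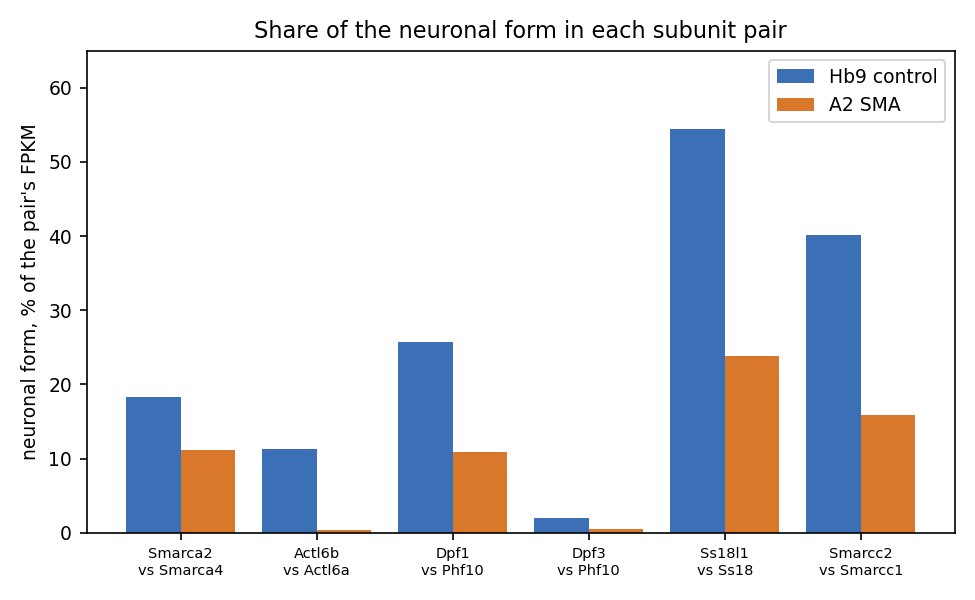
Share of the neuronal form in the summed FPKM of each subunit pair, in percent, in Hb9 control MNs and A2 SMA MNs, with 1 value per genotype and the progenitor form named after vs. Every bar is lower in A2 SMA MNs, from 54.4% to 23.8% for Ss18l1 and from 11.3% to 0.320% for Actl6b.

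Smarcc2 encodes BAF170, the counterpart of Smarcc1, and is not 1 of the 10 members. It was at 55.3 FPKM in Hb9 control MNs against 14.997 FPKM in A2 SMA MNs, 3.69-fold lower, and its share of the sum with Smarcc1 was 40.2% and 15.9%. Its status in the table is FAIL. Of 19 other subunits of BAF and of the related PBAF and ncBAF complexes, 7 were at least 2-fold lower and none at least 2-fold higher, beside 22.7% and 6.93% of the comparison set, with a median log2 ratio of -0.70. Relative to the median gene the count was again 7 of 19, beside 16.6% of the set. Among the 7, Bcl11a and Bcl11b passed the 1 FPKM limit in Hb9 control MNs alone, so they could enter the set only by being lower in A2 SMA MNs.

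Several of those 7 belong to families of alternative subunits. Smarcd3, which encodes BAF60c, a form known from heart muscle and neurons, was at 14.8 FPKM in Hb9 control MNs against 4.45 FPKM in A2 SMA MNs, while Smarcd2 was at 91.6 and 92.6 FPKM and Smarcd1 at 109.6 and 67.3 FPKM. Smarcd3 was therefore 6.85% of the SMARCD transcripts in Hb9 control MNs and 2.71% in A2 SMA MNs. Bcl7a was at 42.9 and 9.45 FPKM, 4.54-fold lower, and its part of the BCL7 transcripts was 36.5% and 14.8%. Bcl11a and Bcl11b, which encode zinc finger proteins of neural and lymphoid development, were low in both genotypes, at 2.71 and 2.15 FPKM in Hb9 control MNs against 0.394 and 0.344 FPKM in A2 SMA MNs. Smarce1, a DNA-binding core subunit, was at 41.5 and 14.3 FPKM, and Gltscr1, of the ncBAF complex, at 14.96 and 5.64 FPKM. Dpf2, the ubiquitous PHD finger subunit, was the most abundant of its family with 166 FPKM in Hb9 control MNs against 119.7 FPKM in A2 SMA MNs. It made up 52.3% and 50.6% of the 4 PHD finger transcripts, Phf10 made up 34.9% and 43.8%, and Dpf1 made up 12.1% and 5.35%.

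Other ATP-dependent remodellers served as a comparison of like function. Of 46 subunits of the ISWI, CHD and NuRD, and INO80, SRCAP and TIP60 complexes, 3 were at least 2-fold lower and 1 at least 2-fold higher, beside 22.7% and 6.93% of the comparison set, and their median log2 ratio was -0.29. Among 20 CHD and NuRD genes the median was -0.39, with Chd3 at 116.6 and 34.6 FPKM and Chd7, the gene mutated in CHARGE syndrome, at 68.2 and 24.7 FPKM. Mta3, a NuRD subunit chosen after its value was seen, was the gene past 2-fold in the other direction, at 57.5 FPKM in Hb9 control MNs against 157.9 FPKM in A2 SMA MNs. Among 10 ISWI genes the median was -0.28, and Baz2b (58.7 and 28.0 FPKM) and Smarca1 (9.59 and 4.92 FPKM) had the largest differences in FPKM as deposited. Among 16 genes of INO80, SRCAP and TIP60, complexes that also contain the Actl6a protein, none was past 2-fold in FPKM as deposited. Their median was -0.10, and the largest differences in those values were of Ruvbl1 (2.33 and 3.89 FPKM) and Trrap (90.2 and 54.8 FPKM). Relative to the median gene, 2 of the 46 were lower and 2 higher by 2-fold, beside 16.6% and 10.6% of the set, with Ruvbl1 then past the limit (log2 ratio 1.04). On that scale the ISWI median became 0.01 and that of the INO80, SRCAP and TIP60 genes 0.19, so both turned in sign. Of the genes named here and in the preceding paragraph, Smarcd1, Gltscr1, Chd3, Mta3 and Trrap carry the status FAIL.

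**Figure D3:**
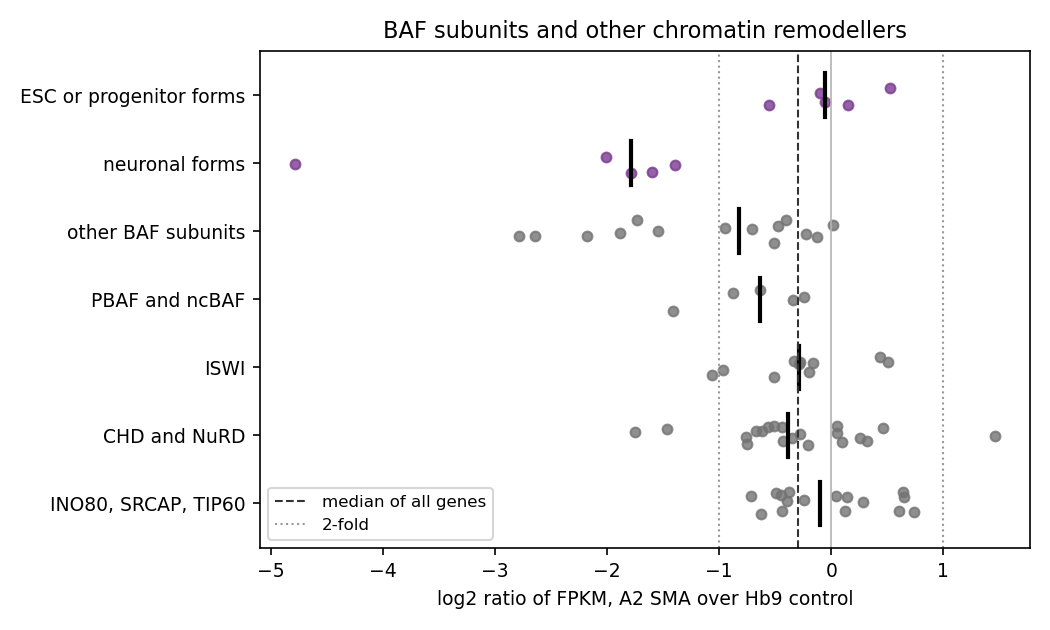
Log2 ratio of FPKM, A2 SMA over Hb9 control MNs, for each gene (points) of the BAF members, the other BAF subunits and other remodellers, with the median of each list (thick bars), the median of all genes (dashed, -0.30) and 2-fold limits (dotted). All 5 neuronal forms lie left of the 2-fold limit, and the 5 ESC or progenitor forms lie between the limits.

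The known regulators of the exchange were read from the same table. Rest, chosen after its value was seen, was at 16.1 FPKM in Hb9 control MNs against 41.4 FPKM in A2 SMA MNs, 2.58-fold higher (log2 ratio 1.37), with the status FAIL. Its corepressor genes Rcor1 and Rcor2 were at 25.1 and 267 FPKM in Hb9 control MNs against 19.8 and 175 FPKM in A2 SMA MNs. The locus that holds Mir9-2 and C130071C03Rik (chr13:83861160-83880913 of m37) was at 29.4 FPKM in Hb9 control MNs against 0.462 FPKM in A2 SMA MNs, 63.6-fold lower. The locus of Mir124a-2 was at 36.7 and 0.653 FPKM, 56.2-fold lower, and that of Mir124a-1, chosen after its value was seen, was at 18.4 and 2.02 FPKM, 9.11-fold lower. These values are of long transcripts over the loci, not of mature microRNAs, and Mir9-3 and Mir124a-3 were listed at 0 FPKM in both genotypes. Of the 8 genes and loci of this list in the comparison set, 3 were at least 2-fold lower and 1 at least 2-fold higher, beside 22.7% and 6.93% of the whole set. The Mir9-2 and Mir124a-2 loci passed the 1 FPKM limit through their Hb9 control value alone and so could enter only as lower.

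**Figure D4:**
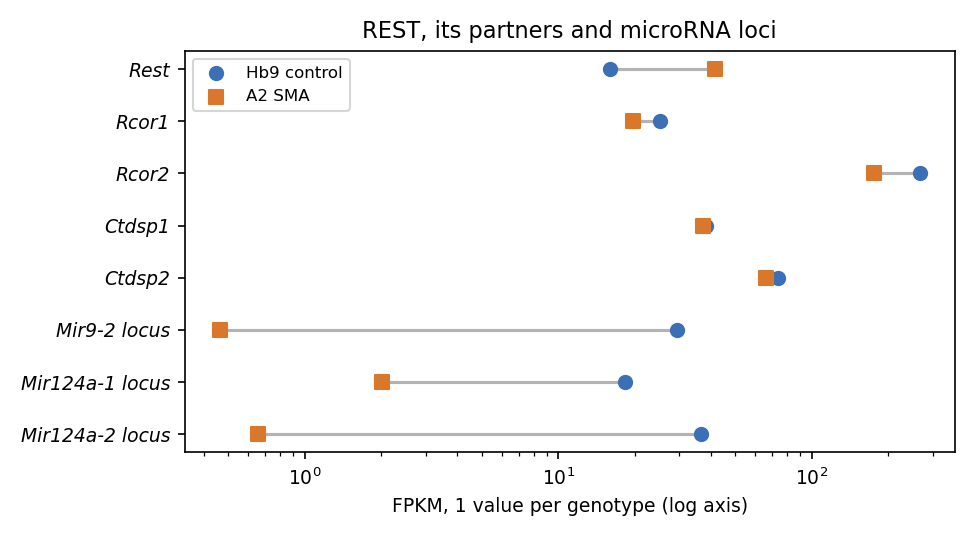
FPKM of Rest, its partner genes and the microRNA loci with a value above 0, in Hb9 control MNs (circles) and A2 SMA MNs (squares) on a log axis, 1 value per genotype. Rest lies to the right in A2 SMA MNs (16.1 to 41.4 FPKM), and the Mir9-2, Mir124a-1 and Mir124a-2 loci lie to the left.

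The mature miR-9-3p and its match in the Actl6a transcript are shown because Actl6a is the member that this microRNA is known to repress. Capitals mark bases 2 to 8, the seed, in the RefSeq sequence of the microRNA, and the 7 bases that pair with it in Actl6a.
mmu-miR-9-3p: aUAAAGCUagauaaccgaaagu
Actl6a site: cacctcaacgtctgtAGCTTTAg
The site is in the 3′ UTR of the longest coding transcript of Actl6a in GENCODE M21, from base 38 after the stop codon, and its 7 bases are at chr3:32726640-32726646 of GRCm38 on the plus strand. AGCTTTA occurred 1 time in the 371 bases of that UTR. In the same length of 3′ UTR, 2.87% of 14368 genes held it at least 1 time. Of the other members, Smarcc1 held 2 copies in a 3′ UTR of 2265 bases and Smarca2 held 1 in 905 bases, lengths for which no share was computed. Both were lower in A2 SMA MNs, Smarcc1 only before ratios were taken relative to the median gene, whereas Actl6a was higher on either scale. Whether mature miR-9-3p acted on these transcripts in the sorted cells was not tested.

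The promoters of the members were described by a feature the choice of members did not use. All 9 with a RefSeq window had an observed-to-expected CpG ratio of at least 0.75, which 24.99% of all windows reached. The limit lies just under the lowest member (Dpf3, 0.769). The share among promoters of the comparison set was not computed, so whether the members differ from other expressed genes was not tested. The ratio was 0.851 to 1.16 for 4 ESC or progenitor forms and 0.769 to 1.01 for the 5 neuronal forms, so the ranges overlapped, beside a median of 0.384 over all windows. The value of 1.01 is that of Ss18l1, the only member whose window end was not found in an annotated transcript of its gene. GC content was 63.7% to 87.0% in the first group and 55.3% to 74.0% in the second.

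Counterpart genes could in principle share reads. Every window of 50 bases, the read length, in 1 coding transcript per gene was compared with the counterpart's transcript, with up to 2 mismatches allowed. No window matched for the pairs of members, and 1 window matched between Smarcc1 and Smarcc2. Dpf1 and Dpf3 were compared with Phf10 only, not with each other or with Dpf2.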

How the data were processed

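RNA of FACS-sorted MNs was sequenced in 3 samples per genotype. Reads were checked with FastQC 0.10.1, trimmed with CutAdapt, mapped with TopHat 2.04 to mouse NCBI m37 with an Ensembl annotation, assembled with Cufflinks and compared with Cuffdiff, as the authors' methods and processing notes state. The deposited table gives FPKM values computed by the authors, 1 per gene or locus and genotype. Its fold changes, test statistics, p-values and significance marks are the authors' own comparison and were not used. The status column served as a mark only.

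The entry with the highest FPKM was taken for each symbol, and log2 ratios were formed without a pseudocount in Python 3.11.15 with numpy 2.4.6 and pandas 2.3.3. The counting of genes past 2-fold was tested on simulated data. Loci are printed from base 1, since the lengths of 175 small RNA entries matched RefSeq only if the table counts starts from 0. The members and lists were chosen with earlier results of these data known. Named genes are all members, other BAF subunits past 2-fold with Smarcc2 and Dpf2, at most the 2 largest differences of each remodeller and regulator list, at most the 2 most abundant markers of each list, and Smn1. Chat, Lhx3, Rest, Rcor1, Rcor2, Mir124a-1, Mta3, Smarcd1 and Smarcd2 were named after their values were seen. Map2 was matched as Mtap2, and 5 listed genes had no matching entry and were not analysed here. Protein sequences were not used here.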

Additional observations from a re-analysis of the deposited data

How the results depend on the processing

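With pseudocounts of 0.1 and 1 FPKM and under 3 scalings (median gene, upper quartile, and the reference genes Gusb, Rpl13a and Pgk1), 5 members were at least 2-fold lower and none higher each time. Relative to the median gene, 16.6% of the comparison set was lower and 10.6% higher. The shares of the set under the pseudocounts and the other scalings were not computed, so those counts have no background beside them. The direction of Smarcc1 and Phf10 turned under the 3 scalings, the first 2 of which gave the same shift of -0.30. Adding up entries, keeping entries of 1 gene and dropping the filter could not change a member, since each has 1 entry of its own past the filter. A filter of 5 FPKM removed Dpf3 and left 4 members lower, of which Actl6b and Ss18l1 passed through Hb9 control MNs alone. The share of all entries past 2-fold at that filter was not computed, so this count cannot be set against one. A limit of 4-fold left 2 members lower (Actl6b and Dpf3), beside 9.04% of the comparison set. Both passed 1 FPKM in Hb9 control MNs alone, so they could enter that set only as lower. With 1 FPKM added to both forms, the neuronal share in A2 SMA MNs was 1.29% for Actl6b and 1.45% for Dpf3, and the log2 ratios were -2.90 and -1.05. Of 98 alternative values from settings that could change one, 93 moved by less than a factor of 1.5, a limit set without a replicate spread. The 3 scalings shift every log2 ratio alike (-0.30, -0.30 and -0.14), by less than that factor. Ratios under them therefore could not count as moved. Leaving out the status FAIL was chosen after seeing the data. No paired analysis was possible because the table gives 1 value per genotype, and leaving out a replicate was not run for the same reason. The table gives no read counts, so the counting error of values under 1 FPKM could not be given.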
